A study of Mus musculus with 55 samples.

Results

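The genes Egr1, Egr3 and Egr4, of the early growth response (EGR) family, and Nab1 and Nab2, which encode corepressors of EGR proteins, were followed through every stage, stimulus and time point in RNA of cultured mouse neurons. These 5 genes were chosen by name, out of 29680 genes with a matched transcript. Egr2, which the study also names, was not among them. EGR proteins are zinc-finger transcription factors, and their genes are immediate early genes: neurons switch them on within minutes of synaptic activity, through calcium entry, the ERK kinases and serum response factor. NAB1 and NAB2 do not bind DNA themselves. They attach to EGR proteins and lower transcription from EGR targets, NAB2 in part by recruiting the chromatin remodelling complex NuRD, and EGR proteins are in turn known to raise Nab2 transcription.

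The neurons came from cortex and hippocampus of CD1 mouse embryos of both sexes, dissected at embryonic day 16 to 17.5, and carried no genetic change. In the maturation experiment (28 libraries), 7DIV cultures and cultures that the study groups as 21DIV, and the titles give as 23 DIV, were left basal or were given 55 mM KCl, which depolarises the membrane, for 15 or 180 min. Others received 50 μM bicuculline (Bic), which blocks inhibitory GABA-A receptors, plus 4-aminopyridine (4-AP) at 2.5 mM, which blocks potassium channels, for the same times. In the stimuli experiment (27 libraries), all at 21DIV, KCl at 55 mM or Bic at 50 μM alone was applied for 15, 45 or 180 min, with basal cultures as control. Its remaining cultures were silenced with 1 μM tetrodotoxin (TTX), a blocker of sodium channels, for 48 h and were either taken as basal TTX or had the TTX washed out 15, 45 or 180 min earlier (TTXw). Groups held 2 or 3 libraries, and basal TTX held 4. The study calls them experimental replicates without saying that each came from a separate culture preparation, so p-values measure the spread between these libraries, which may be partly technical.

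Each library held between 1659263 and 4473908 counts on genes at 7DIV (median 2867181, n = 15), between 1783609 and 14008626 at 21DIV of the maturation experiment (median 5086818, n = 13), and between 1176887 and 3907601 in the stimuli experiment (median 2383101, n = 27). Levels are given as CPM, the counts of a gene scaled to a fixed library size, after TMM scaling within an experiment. The members were sparse in the shallower libraries: Egr4 fell to 5 counts, Egr3 to 6 and Nab1 to 7 in single TTX libraries. The library of 7DIV basal replicate 3 stood apart from the other 14 of its stage, with a score of 29.4 on the second principal component against at most 5.96. At 21DIV of the maturation experiment, KCl 180 min replicate 1 had a score of 2.26 on the first component, and replicates 2 and 3 of its group had scores of -15.3 and -14.6. Bic and 4-AP 15 min replicate 1, the shallowest library of that stage with 1783609 counts, had a score of -16.2 on the second component, where replicate 2 of its group had 6.24. Markers of other cell types were present. The 6 astrocyte markers summed to between 407 and 644 CPM in 7DIV basal libraries and to between 3396 and 4572 in 21DIV basal libraries, and the 8 neuron markers to between 4080 and 4378 and between 5117 and 6049. In such bulk samples, fewer cells of a type and less RNA per cell cannot be told apart.

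In the text, a gene rose or fell where it passed the threshold: an adjusted p under 0.05 (edgeR's quasi-likelihood test, adjusted by Benjamini-Hochberg over every gene tested) and a change of at least 1.5-fold. Differences between responses needed only the adjusted p. Changes are log2 fold changes with their standard errors (SE).

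Before the values, the promoter windows of the members are shown, because the genes are known to be regulated through short DNA motifs. The RefSeq promoter table of GRCm38.p6 had an entry for 3 of the 5 members, Egr4, Nab1 and Nab2. The 250 bases before the annotated start were searched on both strands for the EGR site GCGNGGGCG, the cAMP response element TGACGTCA and its core TGACG (which overlaps it), the CArG box bound by serum response factor, and TATAAA. The window of Nab1, with 80.8% G and C, held 3 EGR sites. Over all 32851 windows of this length, 4.70% held at least 1. These sites, with 10 bases on either side and the site in capitals, lay at chr1:52500571-52500599, chr1:52500539-52500567 and chr1:52500468-52500496 on the minus strand, that is 141 to 133, 109 to 101 and 38 to 30 bases before the start:
Nab1 site 1: gccccgcggcCGCCCACGCcgggatctgc
Nab1 site 2: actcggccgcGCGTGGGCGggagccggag
Nab1 site 3: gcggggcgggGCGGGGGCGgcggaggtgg
The first of them is on the opposite strand to the others. The Nab1 window lies inside the annotated span of the gene (chromosome 1, 52455849 to 52500712), whose outermost transcript starts further upstream.

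The window of Egr4, at chr6:85513590-85513839 on the minus strand, held the core TGACG at 2 places, 177 to 173 and 109 to 105 bases before the start, both read as cgtca on the strand shown and given in capitals:
Egr4: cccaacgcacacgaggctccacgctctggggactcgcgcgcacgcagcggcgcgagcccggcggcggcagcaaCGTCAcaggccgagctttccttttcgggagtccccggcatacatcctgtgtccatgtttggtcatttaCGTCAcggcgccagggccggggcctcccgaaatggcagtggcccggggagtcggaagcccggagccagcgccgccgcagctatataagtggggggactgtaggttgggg
The core was in 17.8% of all windows. The Nab1 window also held it at 1 place. The window of Nab2, at chr10:127666704-127666953 on the minus strand, had no match to any of these motifs. A match is a match of letters only, and no binding was measured.

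In the genome, Egr1 is on chromosome 18, Egr3 on chromosome 14 (70077317 to 70082613), Egr4 on chromosome 6 (85511121 to 85513589) and Nab2 on chromosome 10 (127660918 to 127666703). The last 70 bases of Nab2 overlap Stat6 on the opposite strand. Stat6 was at most 3.71 CPM in any library, and whether counting used strand is not stated in the sources used here.

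The comparison of basal cultures asked how the resting level changed with maturation. Egr3 and Nab2 were higher at 21DIV and Nab1 was lower, so 3 of the 5 members passed the threshold. Of the 10506 genes tested, 33.1% did. For Egr3, the 7DIV basal libraries held 19.0, 20.2 and 9.21 CPM and the 21DIV basal libraries 23.2, 46.3 and 46.3. No 21DIV library was as low as any at 7DIV, and the change was 1.35 (SE 0.33, adjusted p = 0.00544). Nab2 held 19.4, 6.14 and 15.4 CPM at 7DIV and 29.1, 33.4 and 46.2 at 21DIV. These groups did not overlap either, and Nab2 rose by 1.39 (SE 0.31, adjusted p = 0.00301). Nab1, by contrast, went from 24.6, 20.2 and 26.8 CPM to 8.30, 12.7 and 10.5, a change of -1.17 (SE 0.26, adjusted p = 0.00258). The corepressor genes thus moved in opposite directions in this experiment, and all of these calls held with each library left out in turn. The separately normalised stimuli experiment also had basal libraries at 21DIV. Egr3 held 7.21 to 13.2 CPM there and Nab2 13.0 to 14.8, below every 21DIV basal library here and overlapping the 7DIV range. Nab1 held 10.6 to 11.9 there, below every 7DIV basal library. These levels were not compared by a test across experiments.

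Egr1 held 30.8, 58.9 and 35.8 CPM at 7DIV and 51.2, 48.7 and 55.7 at 21DIV, and its change of 0.36 (SE 0.22) did not pass. The highest 7DIV value belonged to replicate 3, the library that stood apart, and without it the change of Egr1 was 0.63 (SE 0.19, adjusted p = 0.0259). Egr4 had 36.5, 17.2 and 14.9 CPM at 7DIV and 35.5, 22.5 and 42.8 at 21DIV, a change of 0.61 (SE 0.33) that did not pass. Without 7DIV basal replicate 2, the highest of the 7DIV libraries, it was 1.09 (adjusted p = 0.017).

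Around these genes, the list of 10 other immediate early genes had 1 member higher and 7 lower at 21DIV, with a median of -1.19, where the median of all genes was 0.01. Nr4a3, which encodes a nuclear receptor, fell by 2.80 (SE 0.14, adjusted p = 1.31e-08), Fos by 2.23 (SE 0.24, adjusted p = 8.96e-06), and Arc, a synaptic plasticity gene, rose by 2.04 (SE 0.23, adjusted p = 1.22e-05). Of the 10 genes described as EGR targets that were tested, 5 were higher and 1 lower (median 0.94), led by Syn2, a synaptic vesicle gene, at 2.95 (SE 0.16, adjusted p = 1.64e-08). Among 14 NuRD subunits, Mbd2 and Mta3 rose and Hdac2 fell. At the same time, 5 of 6 astrocyte markers, all 6 tested oligodendrocyte lineage markers and 6 of 8 neuron markers were higher at 21DIV, and 2 neuron markers were lower. The part of these cell types in the changes of Egr3, Nab1 and Nab2 was not tested.

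**Figure D1:**
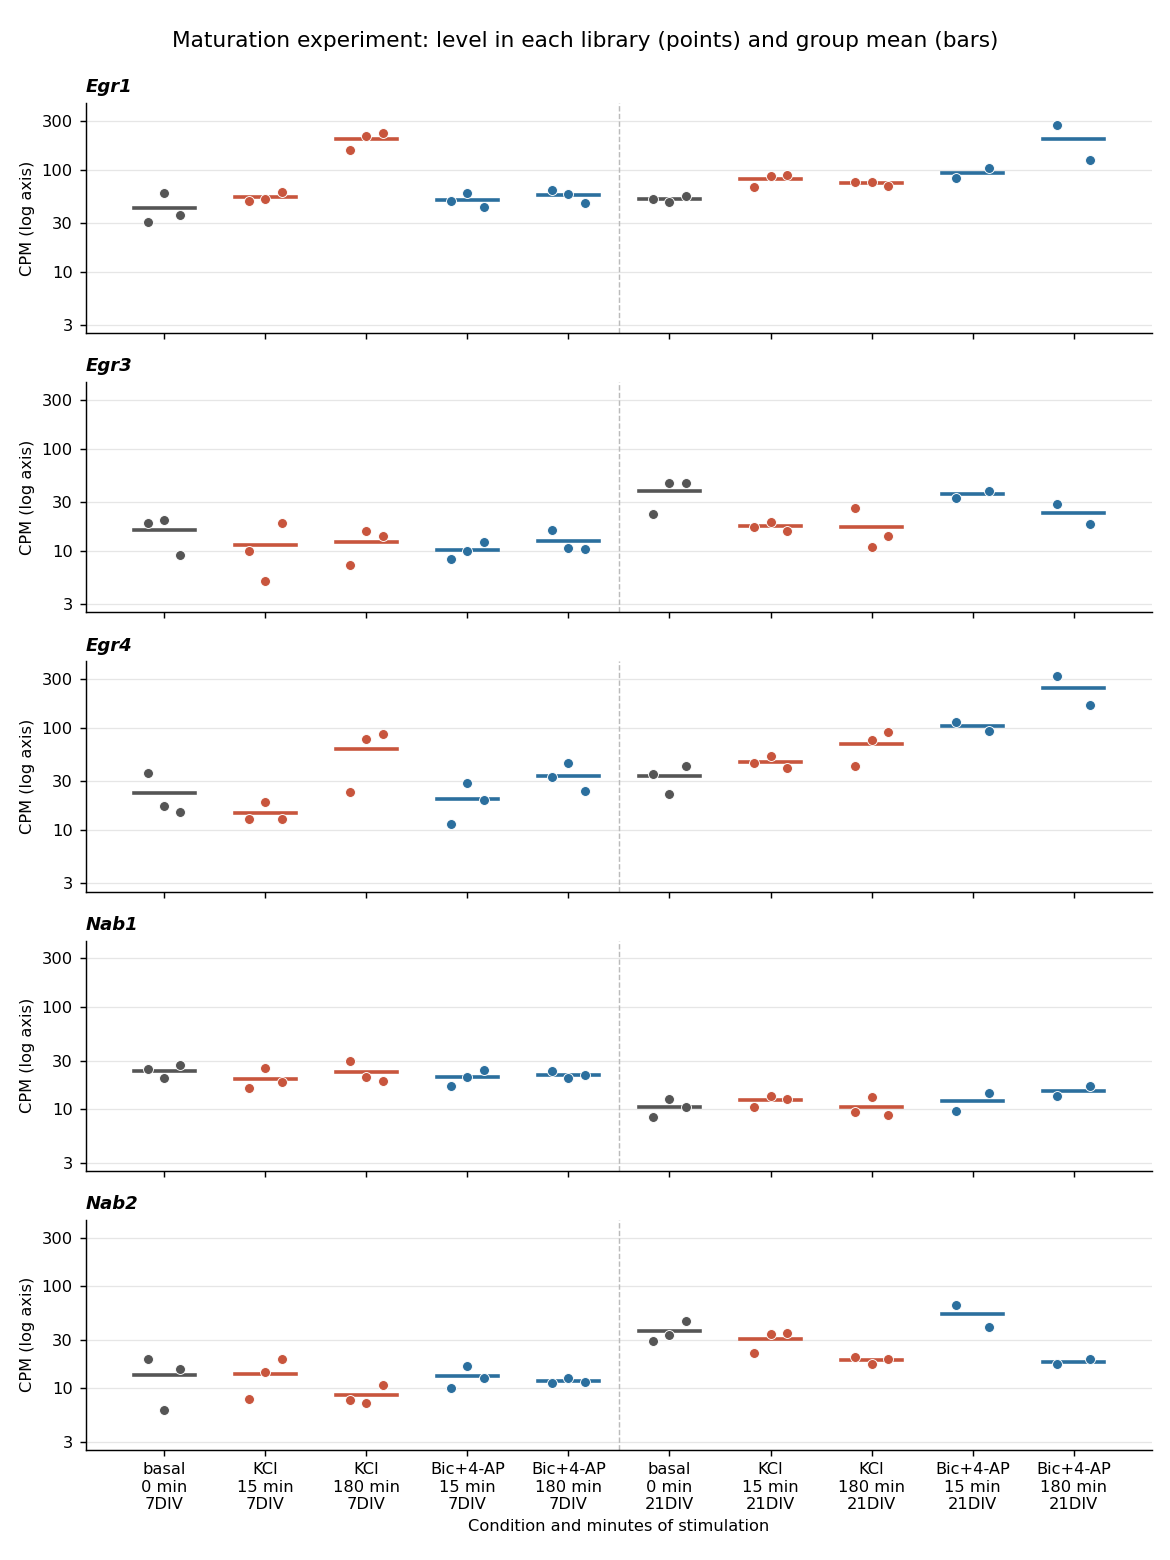
Level of each gene in CPM (log axis) in every library of the maturation experiment (points) with the group mean (bar), for 7DIV to the left and 21DIV to the right of the dashed line. Nab1 is lower and Nab2 and Egr3 are higher in 21DIV basal libraries than in 7DIV basal libraries, and Egr1 is high with KCl at 180 min in 7DIV and with Bic and 4-AP at 180 min in 21DIV.

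Stimulated cultures of the maturation experiment were compared with basal cultures of the same stage, so that the 4 comparisons at a stage share their basal libraries. After 15 min of KCl at 7DIV, none of the members passed edgeR's threshold, nor did any of 11742 genes (0.0%). None of the members had an unadjusted p under 0.05 or passed with DESeq2, against 659 and 3 of all genes.

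With 180 min of KCl at 7DIV, Egr1 was 155, 215 and 228 CPM, well above the basal libraries, and rose by 2.29 (SE 0.23, adjusted p = 3.33e-07), or 4.87-fold. The call on Egr1 held without each library. Egr4, at 23.6, 78.3 and 86.5 CPM, overlapped the basal range through replicate 1. Its rise of 1.49 (SE 0.41, adjusted p = 0.0473) was lost without any of 4 libraries, basal replicates 3 (adjusted p = 0.174) and 4 (0.247) and KCl 180 min replicates 2 (0.189) and 3 (0.240), and DESeq2 did not call it (0.0586). It was also lost with counts summed over all transcripts matched to a gene (0.0939) and with only the compared groups in the fit (0.0763). These were 2 of 5 members, where 1.98% of all genes passed. Egr3 (7.29, 15.7 and 13.9 CPM), Nab1 (29.6, 20.8 and 19.0) and Nab2 (7.72, 7.23 and 10.9) did not pass. From 15 to 180 min of KCl, Egr1 rose by 1.90 (SE 0.22, adjusted p = 3.62e-06) and Egr4 by 2.06 (SE 0.41, adjusted p = 0.00314), 2 of 5 members where 2.71% of all genes passed, and both held without each library. The other immediate early genes rose at 180 min too, 7 of 10 with a median of 1.87 (all genes 0.00), among them Junb at 2.63 (SE 0.23, adjusted p = 2.61e-08). Srf, the gene of serum response factor, was the only one called of its list of 6, at 1.66 (SE 0.27, adjusted p = 3.78e-04).

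With Bic and 4-AP at 7DIV the largest changes were -0.61 (SE 0.42), for Egr3 at 15 min, and 0.61 (SE 0.42), for Egr4 at 180 min. Egr1 was 49.4, 58.9 and 42.7 CPM at 15 min and 63.5, 57.7 and 46.8 at 180 min, and Egr4 was 11.5, 29.3 and 19.6, then 32.8, 45.7 and 23.9. At both times none of the members passed with edgeR (0.0% of all genes, against 793 and 701 genes with an unadjusted p under 0.05). DESeq2 called none of the members and 3 and 0 of all genes, and none of the members had an unadjusted p under 0.05. Between 15 and 180 min the members were not called either, by edgeR (0.0% of all genes) or DESeq2, and none had an unadjusted p under 0.05.

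At 21DIV, Egr3 was lower with KCl. It held 17.1, 19.3 and 15.8 CPM at 15 min, all below the 23.2, 46.3 and 46.3 of basal libraries, a change of -1.15 (SE 0.34, adjusted p = 0.0317). At 180 min it held 26.5, 10.996 and 14.2, a change of -1.16 (SE 0.34, adjusted p = 0.0396), and replicate 1, the library that stood apart, overlapped the basal range. Without that library the change was -1.63 (SE 0.38, adjusted p = 0.00604). These calls on Egr3 were otherwise fragile, since at 15 min only leaving out basal replicate 1 kept the call. The adjusted p there was 0.159 and 0.152 without basal replicates 2 and 3, and 0.101, 0.0625 and 0.0837 without KCl 15 min replicates 1, 2 and 3. At 180 min the adjusted p reached 0.242 without KCl 180 min replicate 2, 0.186 without replicate 3, and 0.154 and 0.180 without basal replicates 2 and 3. With transcripts summed, both calls were lost (0.0893 at 15 min and 0.102 at 180 min), and with only the compared groups in the fit that at 180 min was (0.0768).

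Nab2 held 22.3, 34.1 and 34.5 CPM after 15 min of KCl at 21DIV and 20.4, 17.3 and 19.4 after 180 min, all of the latter below the basal libraries. Its fall at 180 min was -0.93 (SE 0.28, adjusted p = 0.0403), and was lost without basal replicates 2 (adjusted p = 0.0799) or 3 (0.253) and without KCl 180 min replicates 2 (0.188) or 3 (0.132), and with transcripts summed (0.101). Egr1 held 68.4, 86.5 and 88.1 CPM at 15 min and 75.6, 75.5 and 69.4 at 180 min, above every basal library. At 0.64 (SE 0.21, adjusted p = 0.0624) and 0.50 (SE 0.22, adjusted p = 0.172) it did not pass, although DESeq2 called the first (adjusted p = 0.0385), as did edgeR with no filter on low counts (0.00878) and with only the compared groups in the fit (0.0468). Egr4 held 45.1, 52.7 and 40.2 CPM, then 42.4, 76.0 and 90.6, and its 1.04 at 180 min (SE 0.36, adjusted p = 0.0805) passed without KCl 180 min replicate 1 (1.29, adjusted p = 0.0246) and with no filter on low counts (1.05, adjusted p = 4.50e-06). In all, 1 of 5 members was called at 15 min, where 6.21% of all genes were, and 2 at 180 min, where 4.88% were. Among the other immediate early genes, 5 of 10 rose at 15 min (median 0.78) and 9 of 10 at 180 min (median 1.75), so that Egr3 moved against the direction of that list. Srf fell at 15 min by 0.92 (SE 0.26, adjusted p = 0.0238). Oligodendrocyte lineage markers summed to 1518 to 1744 CPM at 15 min of KCl and 844 to 1392 at 180 min, against 1776 to 2557 in basal libraries. Neuron markers summed to 4465 to 5005 and 4514 to 5269, against 5117 to 6049. The astrocyte sums overlapped the basal range at both times. The part of these cell types in the falls of Egr3 and Nab2 was not tested. Between 15 and 180 min of KCl edgeR and DESeq2 called none of the members (0.903% of all genes), and only Nab2 had an unadjusted p under 0.05, at -0.66 (SE 0.28, adjusted p = 0.283).

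With Bic and 4-AP at 21DIV, Egr4 held 115 and 93.1 CPM at 15 min, above all 3 basal libraries at 35.5, 22.5 and 42.8. At 180 min it held 325 and 166. The change was 1.61 (SE 0.40) at 15 min, with an adjusted p of 0.345, and 2.86 (SE 0.39, adjusted p = 7.29e-06) at 180 min, or 7.28-fold. Egr1 held 82.8 and 104 CPM at 15 min and 273 and 125 at 180 min. Its change was 0.85 (SE 0.24, adjusted p = 0.617) and then 1.95 (SE 0.23, adjusted p = 1.25e-06). At 15 min edgeR called none of the members and 0.0511% of all genes. Of the members, 2 had an unadjusted p under 0.05, and DESeq2 called 0. With no filter on low counts, edgeR called both Egr4 (1.56, SE 0.21, adjusted p = 3.61e-10) and Egr1 (0.80, SE 0.20, adjusted p = 0.0302). That fit gave Egr4 a smaller SE for a similar change, and called 38 of all genes where the main fit called 6. The rises of Egr1 and Egr4 at 180 min held without each library. Replicate 2 was the higher library for both genes, and without it they came to 1.27 and 2.29.

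Nab2 went the other way. With Bic and 4-AP it was 66.3 and 40.2 CPM at 15 min and 17.3 and 19.3 at 180 min, so that the 180 min libraries lay below every basal library and the 15 min libraries within or above them. At 180 min it fell by 0.99 (SE 0.32, adjusted p = 0.0307), which was kept only with basal replicate 1 left out. The adjusted p was 0.0501 and 0.150 without basal replicates 2 and 3, and 0.215 and 0.0987 without Bic and 4-AP 180 min replicates 2 and 3. It was 0.0687 with transcripts summed. Between 15 and 180 min Nab2 fell by 1.53 (SE 0.35, adjusted p = 0.00428), with an adjusted p of 0.0909 without 15 min replicate 1, the library that stood apart and held 66.3 CPM, and of 0.0665 without 180 min replicate 2. Nab1 held 9.71 and 14.4 CPM, then 13.5 and 16.8 (0.52, SE 0.27, adjusted p = 0.187). Egr3 held 33.1 and 38.5, then 28.9 and 18.2, and did not pass.

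Thus 3 of 5 members passed at 180 min of Bic and 4-AP, where 14.2% of all genes did, and between 15 and 180 min 2 of 5 did (12.2% of all genes), Nab2 and Egr1 at 1.09 (SE 0.27, adjusted p = 0.00635). Without 180 min replicate 2 the latter was 0.42 (adjusted p = 0.417), and without 15 min replicate 1 it was 0.94 (adjusted p = 0.0876). Egr4 changed by 1.25 (SE 0.43, adjusted p = 0.0507) over that interval, and passed without 180 min replicate 3 (1.64, adjusted p = 0.0273), with no filter on low counts (adjusted p = 1.41e-06) and with only the compared groups in the fit (0.0106). All 10 other immediate early genes rose at 180 min, with a median of 2.53 (all genes -0.02), Fos by 4.33 (SE 0.31, adjusted p = 1.69e-10) and Npas4 by 4.31 (SE 0.35, adjusted p = 1.42e-09). In the list around serum response factor, Mrtfb, Srf and Mrtfa fell, 3 of 6. Of 11 genes described as EGR targets, Arc rose by 2.10 (SE 0.35, adjusted p = 1.31e-04) and Pcsk2, Ccnd1 and Gabra4 fell. Beside these changes, 3 of 6 astrocyte markers and 3 of 8 neuron markers fell at 180 min. The summed astrocyte level was 1108 to 2296 CPM against 3396 to 4572 in basal libraries, and the neuron level 4431 to 4681 against 5117 to 6049. The 7 oligodendrocyte lineage markers summed to 887 to 1378 CPM against 1776 to 2557. The microglia markers Cx3cr1 and Aif1 rose, but all 5 microglia markers summed to at most 20.6 CPM in any library. The part of these cell types in the fall of Nab2 was not tested.

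**Figure D2:**
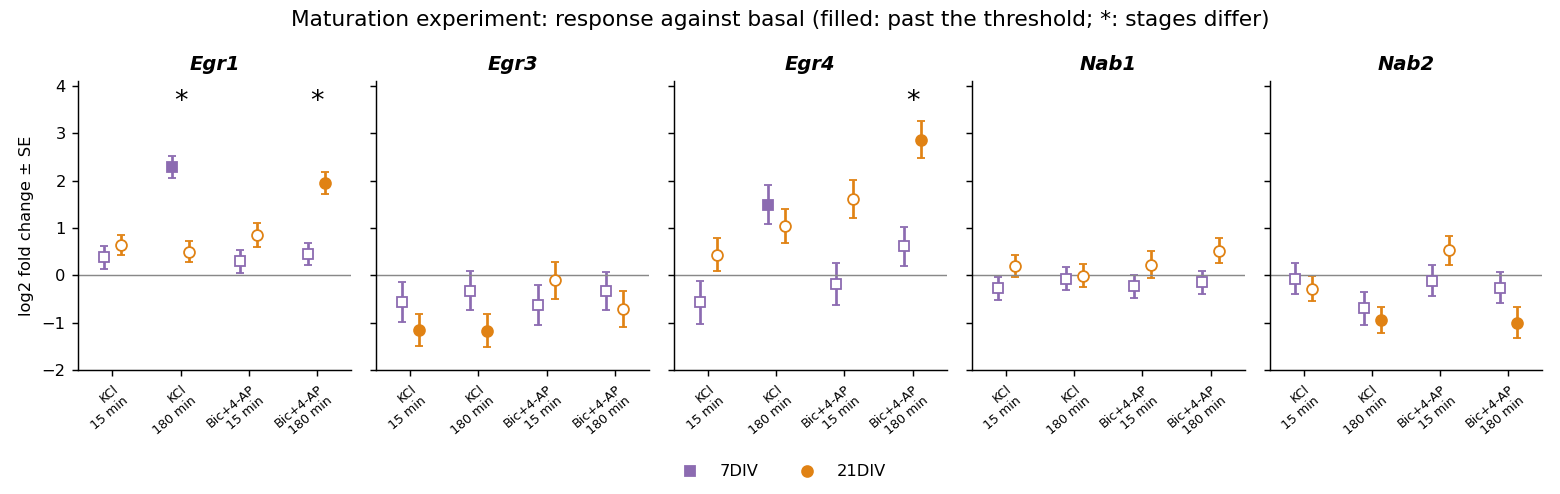
Log2 fold change against basal of the same stage (points, error bars SE) of each gene for KCl and for Bic with 4-AP at 15 and 180 min, at 7DIV (squares) and 21DIV (circles); filled symbols passed the threshold and an asterisk marks a response that differed between stages. Egr1 is at 2.29 with KCl at 180 min at 7DIV and at 0.50 at 21DIV, and the order of the stages is the opposite with Bic and 4-AP.

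Whether the stages responded differently was tested directly, as the 21DIV response minus the 7DIV response, and 3 of 20 pairs of a gene and a stimulus differed. Egr1 responded less to 180 min of KCl at 21DIV (0.50) than at 7DIV (2.29), a difference of -1.78 (SE 0.32, adjusted p = 0.0062). Srf differed in the same direction, by -1.61 (SE 0.37, adjusted p = 0.0307). With Bic and 4-AP at 180 min the order was the reverse, 1.95 at 21DIV and 0.45 at 7DIV, a difference of 1.49 (SE 0.33, adjusted p = 0.00906). Egr4 differed in the same direction with Bic and 4-AP, 2.86 against 0.61, by 2.25 (SE 0.57, adjusted p = 0.0184). The share of all genes that differed was 0.775% for KCl at 180 min, where 1 of 5 members did, and 4.94% for Bic and 4-AP at 180 min, where 2 of 5 did.

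The difference in KCl held without each of 12 libraries. That of Egr1 with Bic and 4-AP was 0.82 (adjusted p = 0.208) without 21DIV Bic and 4-AP 180 min replicate 2, and that of Egr4 was lost without the same library (1.69, adjusted p = 0.168), without 7DIV basal replicate 2 (1.74, adjusted p = 0.107), without 7DIV Bic and 4-AP 180 min replicate 3 (2.04, adjusted p = 0.0548) and without 21DIV basal replicate 2 (2.03, adjusted p = 0.0545). Leaving out 7DIV basal replicate 3, the library that stood apart, kept all 3. At 15 min none of the members differed with either stimulus by edgeR or DESeq2 (2.01% of all genes for KCl and 0.00852% for Bic and 4-AP). Only Egr4 with Bic and 4-AP had an unadjusted p under 0.05, at 1.79 (SE 0.60, adjusted p = 0.908). With no filter on low counts edgeR called that difference (1.72, SE 0.31, adjusted p = 1.52e-04).

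Over the 10 groups of the maturation experiment the mean level of Egr1 ran from 41.8 ± 15.0 CPM (SD, n = 3) in 7DIV basal to 199.6 ± 38.96 (SD, n = 3) with KCl for 180 min at 7DIV, next to 199.4 ± 105 (SD, n = 2) with Bic and 4-AP for 180 min at 21DIV. In that order, 7 of 9 neighbouring groups overlapped in range, and a gap lay below these highest groups. Egr4 ran from 14.8 ± 3.53 (SD, n = 3) with KCl for 15 min at 7DIV to 245.9 ± 112 (SD, n = 2) with Bic and 4-AP for 180 min at 21DIV, where the 2 highest groups, both with Bic and 4-AP at 21DIV, were separated from the next. Nab1 was ordered by stage: all 5 groups at 7DIV had means between 19.9 and 23.9, and all 5 at 21DIV between 10.4 and 15.1, with all 9 pairs of neighbours overlapping. Nab2 had its 5 highest groups at 21DIV, from 53.2 to 18.3, and its 5 lowest at 7DIV, from 13.9 to 8.60. Egr3 likewise had its 5 highest means at 21DIV, from 38.6 down to 17.2, and 8 of 9 neighbouring groups overlapped.

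In the stimuli experiment, basal TTX cultures were first compared with basal cultures, to see how the resting level differed after 48 h of TTX. Egr1 and Egr4 were lower in silenced cultures. Egr1 held 18.6, 27.3, 22.2 and 17.01 CPM in basal TTX and 70.0, 76.3 and 62.6 in basal libraries, and fell by 1.73 (SE 0.20, adjusted p = 1.22e-08), to less than any basal library. Egr4 held 3.33, 6.97, 11.5 and 7.24 CPM against 34.4, 32.4 and 28.8, and fell by 2.15 (SE 0.22, adjusted p = 3.17e-10), or 4.43-fold lower. Egr3, with 3.99, 6.97, 5.73 and 13.0 against 13.2, 11.5 and 7.21, overlapped and did not pass (-0.40, SE 0.32).

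Nab1 was 6.65, 4.07, 7.87 and 9.77 CPM in basal TTX and 11.5, 11.9 and 10.6 in basal libraries. The groups did not overlap, but the change of -0.63 (SE 0.29, adjusted p = 0.0998) did not pass, except without basal TTX replicate 4 (-0.88, adjusted p = 0.0474). Nab2 held 10.6, 8.14, 17.2 and 18.1 against 14.0, 13.0 and 14.8 (-0.01, SE 0.28). The count of 2 of 5 members stood beside 21.6% of 12023 genes, and both calls held without each library. All 10 other immediate early genes fell, with a median of -2.10 (all genes 0.00), for example Npas4, a transcription factor gene induced by calcium, by 2.83 (SE 0.19, adjusted p = 7.82e-15). Elk1 and Srf, which encode factors upstream of EGR genes, rose by 1.53 (SE 0.19, adjusted p = 4.00e-08) and 0.84 (SE 0.17, adjusted p = 1.74e-04). All 6 astrocyte markers also rose, from a summed 1560 to 1938 CPM in basal to 5321 to 6335 in basal TTX libraries, 4 of 6 oligodendrocyte lineage markers rose, and neuron markers went from 5237 to 5466 down to 4485 to 4973, with 1 of 8 lower. Their part in the falls of Egr1 and Egr4 was not tested.

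**Figure D3:**
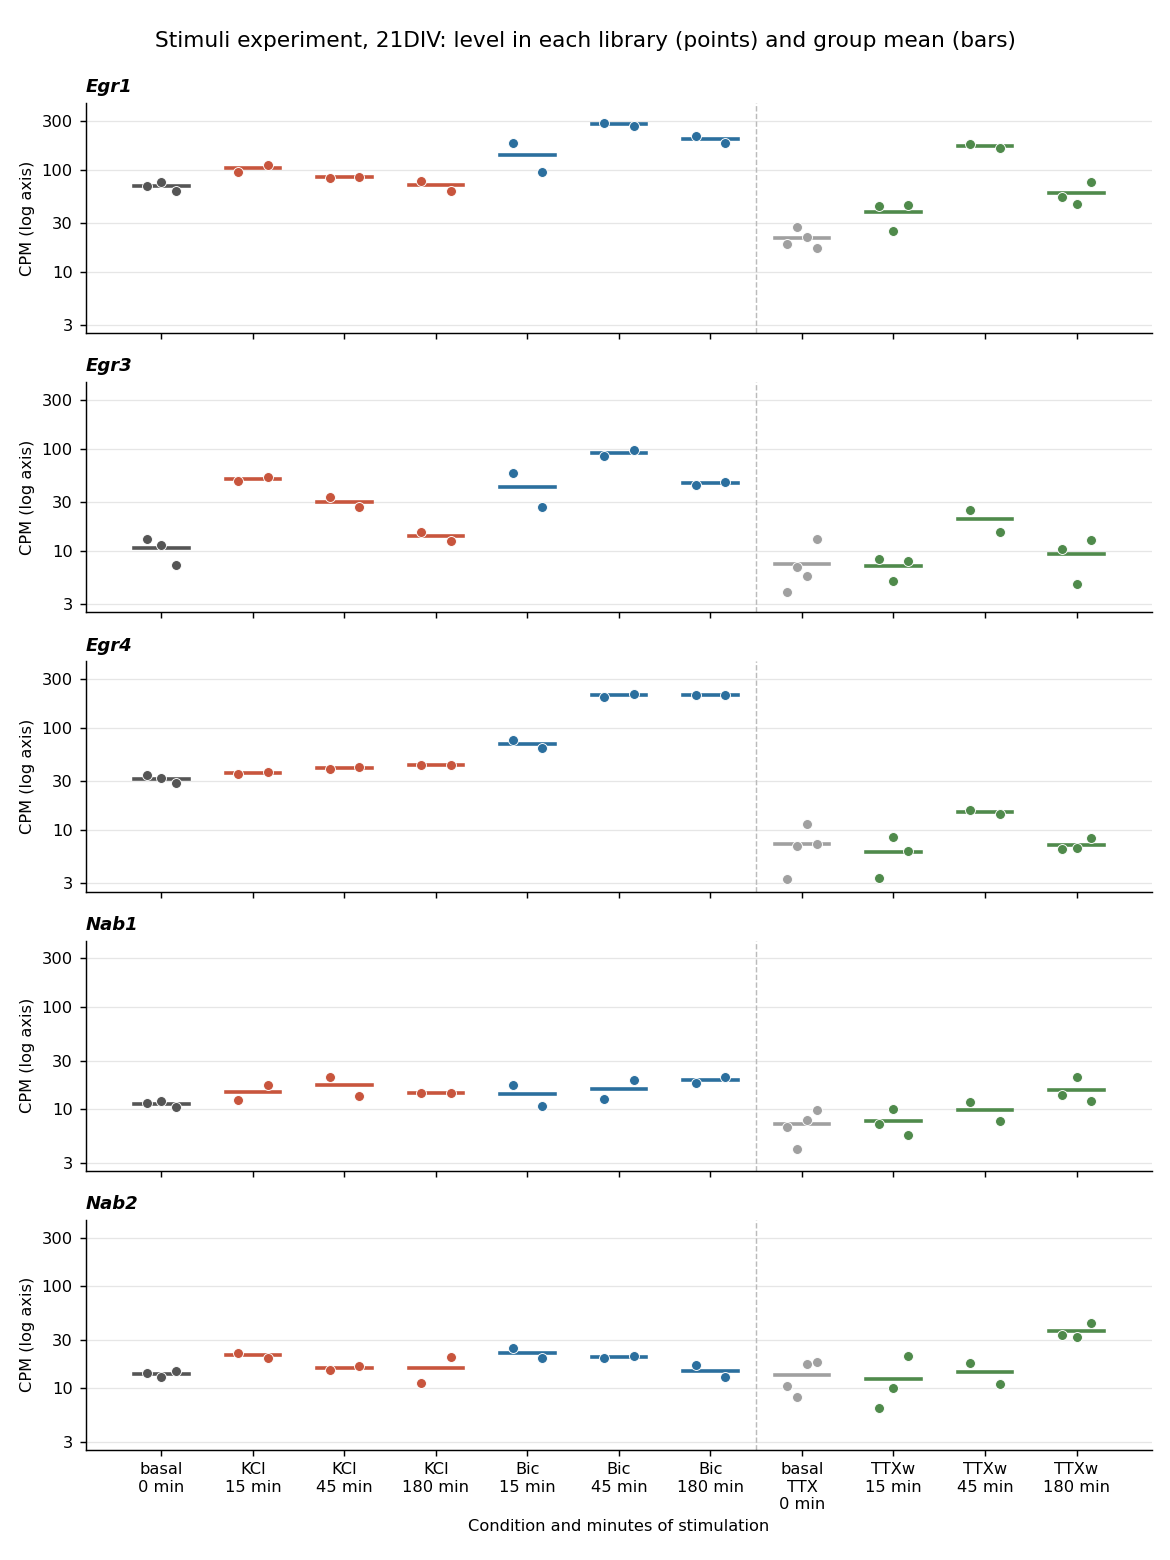
Level of each gene in CPM (log axis) in every library of the stimuli experiment (points) with the group mean (bar); basal, KCl and Bic groups are left of the dashed line and the TTX groups right of it. Egr4 is at 204 to 218 CPM with Bic at 45 and 180 min, at 35.8 to 43.6 CPM with KCl, and at most 15.9 CPM in every TTX group.

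KCl, Bic and TTXw were then each compared with their control, basal for KCl and Bic and basal TTX for TTXw, so the 6 comparisons of KCl and Bic share their controls and so do the 3 of TTXw. Of 45 pairs of a gene and a condition, 15 passed and all 15 were rises. Egr1 and Egr3 rose in 5 of 9 conditions each, Egr4 in 3, and Nab1 and Nab2 in 1 each.

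KCl raised Egr3 and no other member past the threshold. From 13.2, 11.5 and 7.21 CPM in basal libraries it went to 48.4 and 52.7 at 15 min, 33.7 and 27.1 at 45 min and 15.4 and 12.6 at 180 min. The early groups lay above all basal libraries and the last overlapped them. The changes were 2.22 (SE 0.28, adjusted p = 4.77e-07), 1.49 (SE 0.30, adjusted p = 0.006) and 0.35 (SE 0.38, adjusted p = 0.768). That at 45 min was lost without basal replicate 5 (1.29, adjusted p = 0.0602) or KCl 45 min replicate 1 (1.34, adjusted p = 0.216), and with transcripts summed (1.52, adjusted p = 0.0932). In the separately normalised maturation experiment, KCl for 15 min at 21DIV had Egr3 at 15.8 to 19.3 CPM against 23.2 to 46.3 in basal libraries, so its direction there was the opposite. Nab2 fell there with 180 min of KCl at 21DIV, to 17.3 to 20.4 CPM against 29.1 to 46.2 in basal libraries. In the stimuli experiment Nab2 held 11.3 and 20.1 CPM at that time, overlapping the 13.0 to 14.8 of basal libraries, and did not pass. The 2 experiments were not compared by a test.

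Egr4 stayed near basal with KCl, at 35.8 and 36.8 CPM, 39.7 and 41.9, and 43.6 and 43.1 at the successive times, each slightly above the basal 34.4, 32.4 and 28.8. The largest of these changes was 0.44 (SE 0.20, adjusted p = 0.369). Egr1 held 95.5 and 113 CPM at 15 min, 83.4 and 85.1 at 45 min and 78.4 and 62.6 at 180 min. At 15 min its 0.58 (SE 0.20, adjusted p = 0.0554) did not pass, but did without basal replicate 2 (0.69, adjusted p = 0.0419), with RLE size factors (0.0415) and with the filterByExpr filter (0.0405). With KCl 1 of 5 members was thus called at 15 min (7.23% of all genes), 1 at 45 min (0.765%) and none at 180 min (0.765%) by edgeR or DESeq2, where 1 member had an unadjusted p under 0.05. Arc rose at each time, by 3.55 (SE 0.17, adjusted p = 5.88e-18) at 15 min. Astrocyte markers summed to 2975 to 3064, 2663 to 2689 and 2256 to 2264 CPM at the successive times. In basal libraries they summed to 1560 to 1938. Neuron markers summed to 6409 to 7110, 6259 to 6316 and 5964 to 6139 CPM, against 5237 to 5466. Oligodendrocyte lineage markers summed to 982 to 1134, 797 to 848 and 422 to 445.5 CPM, against 623 to 943. The part of these cell types in the rise of Egr3 was not tested.

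Bic raised Egr1, Egr3 and Egr4 at every time point. Egr1 went to 182 and 94.6 CPM at 15 min, 287 and 272 at 45 min and 217 and 185 at 180 min, all above the basal 62.6 to 76.3. Its changes were 1.04 (SE 0.20, adjusted p = 8.68e-04), 2.00 (SE 0.19, adjusted p = 3.86e-10) and 1.52 (SE 0.19, adjusted p = 5.42e-07). Egr3 went to 57.8 and 27.02, 85.6 and 96.7, and 44.6 and 47.2 CPM, with its highest libraries at 45 min. Its changes were 2.06 (SE 0.29, adjusted p = 1.47e-05), 3.07 (SE 0.27, adjusted p = 6.31e-11) and 2.08 (SE 0.28, adjusted p = 2.48e-06). The step of Egr3 from 15 to 45 min did not pass, and its fall from 45 to 180 min was lost with any library of those times left out. Egr4 went to 77.1 and 63.9, 204 and 218, and 211 and 212 CPM, with 1.16 (SE 0.18, adjusted p = 6.03e-05), 2.72 (SE 0.17, adjusted p = 2.15e-15) and 2.73 (SE 0.16, adjusted p = 2.04e-15). Egr4 was thus 6.58-fold and 6.62-fold above basal at the later times.

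At 15 min the calls on Egr1 and Egr3 were lost without Bic 15 min replicate 2, at 0.47 (adjusted p = 0.427) and 1.35 (adjusted p = 0.116). The other calls held without each library. Nab1 and Nab2 did not pass with Bic. Nab1 was 17.4 and 10.8, 12.7 and 19.2, then 18.02 and 20.5 CPM against 11.5, 11.9 and 10.6, at most 0.76 (SE 0.27, adjusted p = 0.296). Nab2 was 24.8 and 19.8, 19.7 and 20.8, then 17.1 and 12.8 against 14.0, 13.0 and 14.8, highest at 15 min with 0.71 (SE 0.31, adjusted p = 0.224). The 3 members called at each time stood beside 3.42%, 7.45% and 0.765% of all genes. Of the other immediate early genes, 9 of 10 rose at 45 min with a median of 2.47, Arc by 5.38 (SE 0.18, adjusted p = 4.37e-24). Elk3 and Srf rose at 45 min by 1.74 (SE 0.26, adjusted p = 1.15e-05) and 0.96 (SE 0.19, adjusted p = 7.28e-04). At 15 min of Bic the astrocyte markers summed to 3002 to 3019 CPM and the neuron markers to 6438 to 6685. Astrocyte markers rose at 45 min as well, 5 of 6, to a summed 3399 to 3770 CPM, and neuron markers, 3 of 8, to 6582 to 6618. At 180 min the sums were 1951 to 2104 and 5730 to 5916, both above the basal 1560 to 1938 and 5237 to 5466, and edgeR called none of these markers. Oligodendrocyte lineage markers summed to 903 to 1033, 984 to 1126 and 814 to 816 CPM at the successive times, against 623 to 943 in basal libraries. The part of these cell types in the rises of Egr1, Egr3 and Egr4 was not tested.

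Bic and KCl were also compared directly at each time, which does not use the shared basal libraries. At 45 min Bic was higher for Egr1 by 1.73 (SE 0.21, adjusted p = 6.63e-07), for Egr3 by 1.58 (SE 0.27, adjusted p = 6.42e-04) and for Egr4 by 2.37 (SE 0.19, adjusted p = 1.11e-11), 3 of 5 members where 0.682% of all genes passed. At 180 min the differences were 1.52 (SE 0.23, adjusted p = 7.02e-05), 1.73 (SE 0.34, adjusted p = 0.00583) and 2.29 (SE 0.20, adjusted p = 2.64e-10), again 3 of 5 members, where 0.732% of all genes passed. Only Egr3 lost the call with a library left out, at 45 min without KCl replicate 2 (adjusted p = 0.0562) and at 180 min without KCl replicate 1 (0.0792), KCl replicate 2 (0.185) or Bic replicate 3 (0.0524). Its size stayed between 1.44 and 1.86. With transcripts summed both calls on Egr3 were lost (adjusted p = 0.126 at 45 min and 0.10 at 180 min).

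At 15 min edgeR called none of the members and none of all genes (0.0%, with 552 at an unadjusted p under 0.05), and 2 members had an unadjusted p under 0.05. Egr4, at 77.1 and 63.9 CPM with Bic and 35.8 and 36.8 with KCl, differed by 0.98 (SE 0.20, adjusted p = 0.152), and was the 1 gene that DESeq2 called (adjusted p = 0.0425). It also passed with edgeR and no filter on low counts (0.0154). Egr3, at 57.8 and 27.02 CPM with Bic and 48.4 and 52.7 with KCl, differed by -0.16 (SE 0.28). Nab1 and Nab2 did not differ past the threshold at any time, and their largest difference was 0.42 (SE 0.33), for Nab1 at 180 min.

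TTXw raised Egr1 most. From 18.6, 27.3, 22.2 and 17.01 CPM in basal TTX, Egr1 went to 44.6, 25.2 and 45.6 at 15 min, 179.7 and 163 at 45 min and 54.3, 46.4 and 75.9 at 180 min. The 15 min group overlapped the control through replicate 2. The changes were 0.91 (SE 0.23, adjusted p = 0.544), 3.03 (SE 0.21, adjusted p = 3.79e-13), or 8.15-fold, and 1.46 (SE 0.22, adjusted p = 4.26e-06), and the last 2 held without each library. Egr1 at 180 min of TTXw overlapped the range of untreated basal libraries. Egr3 held 8.31, 5.03 and 7.88 CPM, 25.3 and 15.4, then 10.5, 4.73 and 12.9. At 45 min its 1.29 (SE 0.35, adjusted p = 0.103) did not pass with edgeR but did with DESeq2 (1.34, adjusted p = 0.037). It passed with edgeR without basal TTX replicate 4 (1.82, adjusted p = 0.0197) and with no filter on low counts (1.28, adjusted p = 0.0067).

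Egr4 stayed low after TTXw, at 3.40, 8.63 and 6.19 CPM, 15.9 and 14.4, then 6.55, 6.62 and 8.35. Its highest change was 1.07 at 45 min (SE 0.29, adjusted p = 0.103), which passed without basal TTX replicate 3 (1.29, adjusted p = 0.0271), and no TTXw library reached the lowest untreated basal library. Its counts there were 9 to 30 per library.

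The corepressor genes moved late. Nab2 held 6.42, 10.1 and 20.8 CPM at 15 min and 17.7 and 11.1 at 45 min, overlapping the basal TTX libraries, and 33.4, 32.2 and 43.3 at 180 min, above every other library of the experiment. Its change at 180 min was 1.37 (SE 0.26, adjusted p = 1.66e-04), 2.59-fold, and held without each library. Nab1 held 7.18, 10.1 and 5.63, then 11.8 and 7.70, and 13.7, 20.8 and 12.1 at 180 min, a change of 1.12 (SE 0.30, adjusted p = 0.00539). Without TTXw 180 min replicate 2 it was 0.82 (adjusted p = 0.116). At 15 min edgeR and DESeq2 called none of the members and none of all genes (0.0%), and 1 member and 758 genes had an unadjusted p under 0.05. With no filter on low counts that member, Egr1, passed (0.93, adjusted p = 0.00494). At 45 min 1 of 5 members was called, beside 0.383% of all genes, and at 180 min 3 of 5, beside 14.0%.

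The other immediate early genes rose at 45 min in 9 of 10 cases (median 2.36), with Fos at 4.15 (SE 0.24, adjusted p = 1.87e-15), and 6 of 10 had risen at 180 min. At 180 min Ccnd1, which encodes cyclin D1 and is described as an EGR target, rose by 1.81 (SE 0.12, adjusted p = 1.22e-14), and Cdk5r1 and Syn1, of the same list, fell by 0.80 (SE 0.11, adjusted p = 3.42e-07) and 0.81 (SE 0.11, adjusted p = 1.10e-06). Among NuRD subunits, Mta3 and Gatad2b fell. Cell type markers moved with these changes. At 180 min of TTXw 4 of 6 astrocyte markers rose, to a summed 7714 to 12033 CPM against 5321 to 6335 in basal TTX. At the same time 3 of 6 oligodendrocyte lineage markers rose, to 2159 to 2847 against 1643 to 1702, and 4 of 8 neuron markers fell, to 2668 to 3196 against 4485 to 4973. At 45 min, where Egr1 rose, astrocyte markers summed to 5460 to 6974 and neuron markers to 4689.5 to 4803. The part of these cell types in the rises of Nab1 and Nab2 was not tested.

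**Figure D4:**
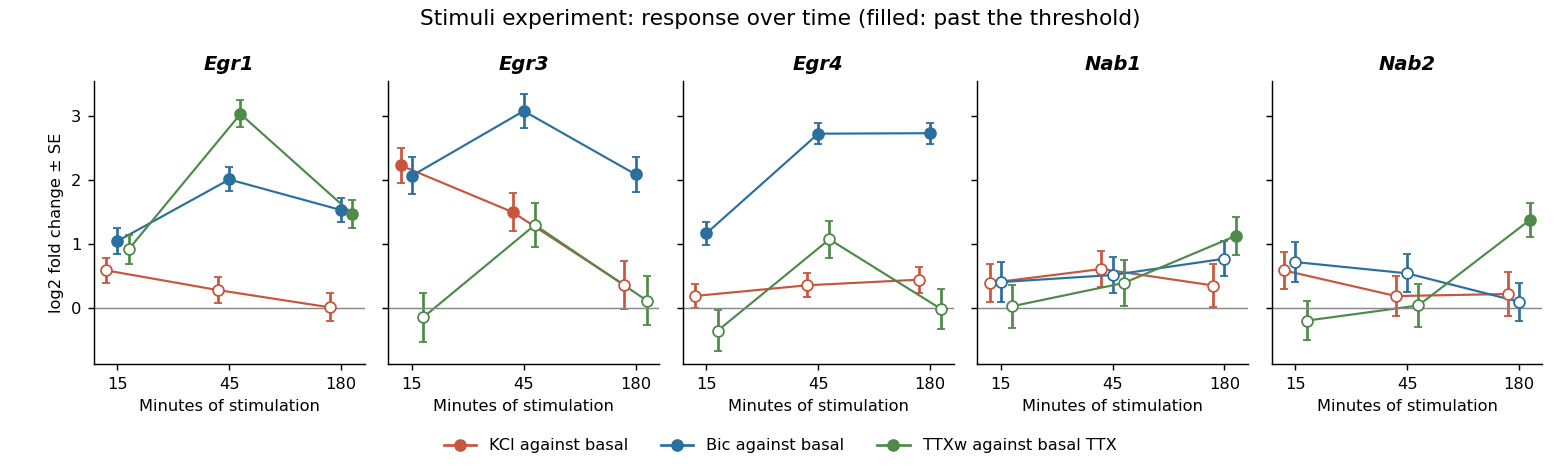
Log2 fold change against control (points, error bars SE) of each gene at 15, 45 and 180 min of KCl, Bic and TTXw; the time points are evenly spaced, and filled symbols passed the threshold. Egr3 with KCl declines from 2.22 to 0.35, Egr1 with TTXw peaks at 3.03 at 45 min, and Nab1 and Nab2 pass only with TTXw at 180 min.

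The response to TTXw was tested against the responses to KCl and Bic, each relative to its own control, and 10 of 30 pairs differed, 3 higher with TTXw and 7 lower. The study removed TTX by repeated exchange for fresh medium, and added KCl and Bic to conditioned medium. It states that control neurons had the same washes, without naming the groups. The part of the medium exchange in these differences was not tested. Against KCl, the response of Egr1 was larger with TTXw by 2.75 (SE 0.30, adjusted p = 1.30e-07) at 45 min and by 1.46 (SE 0.31, adjusted p = 0.0019) at 180 min, and that of Egr3 was smaller by a difference of -2.37 (SE 0.47, adjusted p = 0.00227) at 15 min. These held without each library, and were 1 of 5 members at each time, beside 4.08%, 0.233% and 8.33% of all genes at 15, 45 and 180 min.

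Against Bic, Egr3 and Egr4 responded less to TTXw at every time. The differences were -2.21 (SE 0.48, adjusted p = 0.00763), -1.78 (SE 0.45, adjusted p = 0.0285) and -1.97 (SE 0.47, adjusted p = 0.00505) for Egr3, and -1.52 (SE 0.37, adjusted p = 0.0178), -1.65 (SE 0.34, adjusted p = 0.00544) and -2.75 (SE 0.35, adjusted p = 1.10e-06) for Egr4. Basal TTX replicate 4, which had the highest Egr3 of its group, bore on the first gene: without it the differences of Egr3 were -1.71 (adjusted p = 0.097), -1.28 (adjusted p = 0.226) and -1.47 (adjusted p = 0.0701). Those of Egr4 at 45 and 180 min held without each library, and that at 15 min was lost without Bic 15 min replicate 2 (-1.38, adjusted p = 0.097), TTXw 15 min replicate 1 (-1.18, adjusted p = 0.106) or basal TTX replicate 3 (-1.30, adjusted p = 0.0727). Egr3 was also lost without Bic 15 min replicate 2 (-1.50, adjusted p = 0.200) at 15 min, and at 45 min without TTXw replicate 3 (-1.45, adjusted p = 0.180), Bic replicate 2 (-1.72, adjusted p = 0.103) or basal replicate 5 (-1.58, adjusted p = 0.0813), and with transcripts summed (-1.74, adjusted p = 0.143).

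Egr1 responded to Bic and TTXw with differences of -0.13 (SE 0.31), 1.02 (SE 0.29, adjusted p = 0.0584) and -0.06 (SE 0.30), none of which passed. Without basal TTX replicate 2 the middle one passed (1.17, adjusted p = 0.0383), as it did with no filter on low counts (0.00587) and with only the compared groups in the fit (0.0199). Nab2 responded more to TTXw than to Bic at 180 min, by 1.28 (SE 0.40, adjusted p = 0.0351), a call kept in 4 of 12 fits with a library left out, with adjusted p up to 0.201 without Bic 180 min replicate 3. It was lost without any basal library (adjusted p between 0.0556 and 0.0716), without basal TTX replicates 1 (0.0615) or 2 (0.0735), without TTXw 180 min replicate 3 (0.0755) and without Bic 180 min replicate 2 (0.0592), and with transcripts summed (0.0959). Against KCl, Nab2 at 180 min differed by 1.16 (SE 0.43, adjusted p = 0.0925), and passed without basal TTX replicate 4 (1.39, adjusted p = 0.0496). The counts against Bic were 2, 2 and 3 of 5 members, beside 2.0%, 1.81% and 9.8% of all genes.

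Changes from one time point to the next set the genes apart. Between 15 and 45 min, Bic raised Egr4 by 1.56 (SE 0.18, adjusted p = 9.99e-07) and Egr1 by 0.96 (SE 0.21, adjusted p = 0.0306), 2 of 5 members beside 0.141% of all genes, and the latter was lost without Bic 15 min replicate 3 (0.61, adjusted p = 0.977) or either 45 min library (adjusted p = 0.218 without replicate 1 and 0.146 without replicate 2), with transcripts summed (0.367) and with only the compared groups in the fit (0.165). Egr3 changed by 1.01 (SE 0.27, adjusted p = 0.210), and passed without 15 min replicate 2 (1.77, adjusted p = 0.0411) and with no filter on low counts (0.00963). Between 45 and 180 min of Bic, only Egr3 changed, by -0.99 (SE 0.26, adjusted p = 0.022), beside 3.04% of all genes. That call was lost without any of the 4 libraries, with adjusted p of 0.0674 and 0.184 without 45 min replicates 1 and 2 and of 0.168 and 0.184 without 180 min replicates 2 and 3, and with transcripts summed (0.223). Egr4 differed by 0.01 (SE 0.17) over the same interval.

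After TTXw, Egr1 rose by 2.11 (SE 0.21, adjusted p = 7.82e-09) from 15 to 45 min and fell by 1.56 (SE 0.21, adjusted p = 8.27e-07) from 45 to 180 min, both held without each library. Egr4 rose by 1.43 (SE 0.32, adjusted p = 0.0315), which only leaving out 15 min replicate 2 kept. The adjusted p was 0.221 and 0.0787 without 15 min replicates 1 and 3, and 0.496 and 0.0645 without 45 min replicates 1 and 3. It was 0.0728 with transcripts summed and 0.0846 with only the compared groups in the fit. Egr4 then fell by 1.09 (SE 0.31, adjusted p = 0.0136) from 45 to 180 min. Egr3 changed by 1.44 (SE 0.38, adjusted p = 0.0882) from 15 to 45 min, passing with DESeq2 (adjusted p = 0.0311), without 45 min replicate 3 (0.0479), with no filter on low counts (0.00544) and with only the compared groups in the fit (0.0234). It fell by 1.18 (SE 0.38, adjusted p = 0.0274) from 45 to 180 min. The falls of Egr3 and Egr4 were lost without 45 min replicate 1 (adjusted p = 0.351 and 0.0981) or 180 min replicate 2 (0.214 and 0.0612), and that of Egr4 also without 45 min replicate 3 (0.0504). Both were lost with only the compared groups in the fit (0.0633 and 0.0723), and that of Egr3 with transcripts summed (0.0626). While Egr1, Egr3 and Egr4 fell, Nab2 rose by 1.34 (SE 0.32, adjusted p = 0.00306), a call that was lost without 45 min replicate 3 (1.02). These were 2 and 4 of 5 members, beside 0.266% and 12.3% of all genes. With KCl, edgeR and DESeq2 called none of the members over either interval (0.416% and 0.141% of all genes), although Egr3 had an unadjusted p under 0.05 in both, with -0.73 (SE 0.28, adjusted p = 0.378) and -1.14 (SE 0.36, adjusted p = 0.258). The latter passed with only the compared groups in the fit (adjusted p = 0.0272).

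Over the 11 groups of the stimuli experiment, Egr1 ran from 21.3 ± 4.56 CPM (SD, n = 4) in basal TTX to 279.4 ± 11.2 (SD, n = 2) with Bic at 45 min, followed by Bic at 180 min, TTXw at 45 min and Bic at 15 min. Egr3 ran from 7.08 ± 1.78 (SD, n = 3) with TTXw at 15 min to 91.2 ± 7.84 (SD, n = 2) with Bic at 45 min, followed by KCl at 15 min. Egr4 ran from 6.08 ± 2.62 (SD, n = 3) with TTXw at 15 min to 211.9 ± 0.646 (SD, n = 2) with Bic at 180 min. All 4 TTX groups were at its lower end, and basal and KCl groups were between them and Bic. Neighbouring groups overlapped in 5 of 10 pairs for Egr1, 6 for Egr3, 3 for Egr4, 10 for Nab1 and 8 for Nab2. Nab1 ran from 7.09 to 19.3 CPM, and Nab2 from 12.4 to 36.3, where a gap separated TTXw at 180 min from the rest.

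The genes whose group means of log2 CPM followed each member most closely were ranked by Pearson's r over the groups of an experiment, as a description. In the stimuli experiment (11 groups, 9515 genes ranked), those closest to Egr1 were Ier2 (r = 0.96), Fos (0.96) and Csrnp1 (0.92). To Egr3 they were Arc (0.97), Pim3 (0.96) and Arl4d (0.96), and to Egr4 Npas4 (0.98), Pim1 (0.96) and Dnajb1 (0.96). Closest to Nab1 were Psme4 (0.94), Ccdc9 (0.94) and Zcchc2 (0.94), and to Nab2 Btaf1 (0.94), Nolc1 (0.94) and Hbegf (0.93).

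In the maturation experiment (10 groups, 9026 genes ranked), Egr1 was closest to Fbxo33 (0.92), Junb (0.90) and Gm38431 (0.90), Egr3 to Flrt1 (0.96), Ppp2r2c (0.95) and Ppp3ca (0.95), and Egr4 to Sub1 (0.95), Gm34921 (0.95) and Glg1 (0.94). Nab1 was closest to Npdc1, Lst1 and Inafm1 and Nab2 to Nkain4, Lingo1 and Phyhipl, with r between 0.98 and 0.99. The groups of an experiment share its stages, controls and library preparation. Among the members themselves, Nab1 and Nab2 had r = -0.84 over the maturation groups and 0.54 over the stimuli groups, and Egr1 and Egr3 had r = 0.15 and 0.87.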

How the data were processed

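RNA of 55 samples was sequenced as CEL-Seq2 libraries, which count the 3′ ends of transcripts and carry a 6-base molecular identifier. Per the study's methods, the authors aligned reads to mm10 with STAR and counted them with ESAT. Versions, whether identifiers were collapsed, and whether strand was used are not given in the sources used here. What the authors deposited is 1 table for each experiment, with raw counts of every RefSeq transcript as whole numbers.

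Here, transcripts were matched to RefSeq genes of GRCm38.p6 (80.8% of 97700 and 80.9% of 96722 transcripts, with 18.5% and 19.3% of counts left unmatched), and the transcript with the highest total stood for its gene. A gene had to exceed 5 CPM in 2 or more samples. TMM scaling and edgeR 4.0.16 quasi-likelihood tests were applied under R 4.3.3, in 1 fit for each experiment (11742 and 12023 genes), except that basal cultures of the 2 stages were fitted alone (10506 genes). Python 3.11.15, numpy 2.4.6, pandas 2.3.3 and matplotlib 3.10.9 did the rest. The threshold was an adjusted p of 0.05 with a 1.5-fold change, or the adjusted p alone for differences between responses. SEs were derived from the quasi-likelihood F. Scripts were tested on simulated data. No 2 libraries were near-identical: the lowest chi-square per degree of freedom between replicates was 3.79 and 2.17. Transcripts of Egr3, Nab1 and Nab2 had nearly identical totals, so isoforms were not separated.

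Members and lists were chosen with earlier results of these data known. All members were named, with the list genes that had the smallest adjusted p in a comparison and the 3 genes most like each member. Alternatives were DESeq2 1.42.0, RLE size factors, filterByExpr, no filter, summed transcripts, only the compared groups, a replicate block, and each library left out. Intervals on CPM were not computed, and low counts limit precision.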

Additional observations from a re-analysis of the deposited data

Results flagged for a closer look

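In 3 cases the response of a gene differed between 7DIV and 21DIV by edgeR's test of the interaction, each at 180 min. The response of Egr1 to KCl was lower at 21DIV by a difference of -1.78 on the log2 scale. Its response to Bic with 4-AP was higher at 21DIV by 1.49, and that of Egr4 by 2.25. In the 5 groups of 4 or more libraries by gene, that is basal TTX for each member, no library lay far enough from the others to be singled out.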

How the results depend on the processing

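Across the members, the 8 calls for stimulus against basal in the maturation experiment became 3 with transcripts summed and 5 with a replicate block, and the 10 differences between TTXw and the other responses became 4 with the block. Summed over transcripts, counts came to 3.13 times (maturation) and 3.29 times (stimuli) those of the transcripts used here. In the stimuli experiment each Egr3 transcript held 1810 counts and each Nab2 transcript 1074, so a sum repeats nearly equal counts. The part of this repetition in the lost calls was not tested, nor was the cause of the changes with the block. With each library left out, calls ranged from 3 to 4 for basal stages, 4 to 9 for stimulus against basal in the maturation experiment, 1 to 3 for stage differences, 2 to 3 for basal TTX, 13 to 16 for stimuli against control, 5 to 6 for Bic against KCl, 8 to 10 for TTXw against the other responses and 10 to 14 for time points. No value changed direction past the threshold. Samples with the same replicate number showed no clear shared deviation (correlations from -0.0351 to 0.0289 at 7DIV, -0.247 to 0.114 at 21DIV and -0.0933 to 0.103 in the stimuli experiment). Such correlations cannot tell whether equal numbers came from the same preparation, which the sources used here do not state. The block could not be fitted for basal stages. The differences between responses that the block ended were, against KCl, that of Egr3 at 15 min (-1.66, adjusted p = 0.0941) and, against Bic, those of Egr3 at every time (adjusted p = 0.208, 0.471 and 0.122) and of Egr4 at 15 and 45 min (0.175 and 0.0679). At 180 min of KCl it also ended the calls on Egr4 at 7DIV (0.120) and on Egr3 and Nab2 at 21DIV (0.0538 and 0.0528). Between times of Bic it ended those on Egr1 from 15 to 45 min (0.0974) and Egr3 from 45 to 180 min (0.0673). With TTXw it ended that on Egr4 from 15 to 45 min (0.0525). It gained Egr3 in basal TTX (-1.06, 0.0453) and at 45 min of TTXw (1.84, 0.0172). Of single member values, DESeq2 kept 205 on their side of the threshold, and 1 was lost and 4 were gained. Summed transcripts kept 196 with 14 lost, no filter kept 198 with 12 gained, and RLE size factors and filterByExpr each kept 209 with 1 gained. Fitting only the compared groups kept 194, with 6 lost and 5 gained, and the block kept 191, with 12 lost and 2 gained. Counts over all genes moved by over 1.5 times in 8 of 42 comparisons with DESeq2, 21 with summed transcripts, 20 with no filter, and 15 and 16 of 41 with only the compared groups and the block. At 7DIV, no filter called 27 genes with KCl at 15 min, and 28 and 21 with Bic and 4-AP at 15 and 180 min. The main fit called 0 in each of these. The lowest counts of Egr4, Egr3 and Nab1 were 5, 6 and 7, each in a TTX library.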
